A study of Mus musculus with 16 samples.

Results

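Sort1, Prom2, Mlec, Ace, Cep170b, Tnrc18 and Plb1 are 7 genes whose transcripts gave several separate peaks each in free sperm RNA. A peak was taken as theirs where its annotation named a RefSeq transcript of the gene or where the gene was the nearest to it, and this found 157 of the 159135 peaks listed, 114 of them in exons or untranslated regions (UTRs), which are called exonic peaks here. The 7 genes were taken from 21428 genes named in any list. They were chosen on their counts of exonic peaks in the free RNA of males 1 and 3, so those counts and the contrast between the RNA fractions are given as descriptions, with no test.

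The lists come from RNA sequencing of the sperm of 4 Dnmt2-/- males on the C57BL/6 background, 6 to 8 months old, all of which lack the RNA methyltransferase Dnmt2. Males 1 and 2 were raised on a normal diet (ND) and males 3 and 4 on a high-fat diet (HFD), a western diet rich in butter and sucrose. From the sperm of each male a free RNA fraction (F) and a DNA-bound fraction (D), the RNA released from purified DNA by Dnase, were sequenced, which gives 8 lists and 2 males per diet and fraction. By the methods, somatic cells were removed from the sperm by centrifugation, and no check of purity is described. A further 8 libraries of C57BL/6 males were not analysed here.

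Mature sperm transcribe little, and they travel along the epididymis, a duct whose lining epithelium secretes proteins and vesicles into the fluid around them. The 7 genes have unlike roles. Sort1 encodes sortilin, a receptor that carries proteins from the Golgi to endosomes and lysosomes. Prom2 encodes prominin 2, a membrane glycoprotein of the protrusions of epithelial cells. Mlec encodes malectin, which binds glucosylated N-glycans on new glycoproteins in the endoplasmic reticulum. Ace encodes the angiotensin-converting enzyme, a peptidase of epithelial and endothelial surfaces that is also made in a shorter form in the testis, from a promoter inside the gene. Plb1 encodes phospholipase B1, a lipase of the intestinal brush border. Cep170b is a paralog of the centrosomal protein gene Cep170, and Tnrc18 encodes a large nuclear protein with a BAH domain. By these roles Cep170b and Tnrc18 are not epithelial markers, nor are Sort1 and Mlec. The 7 genes are thus not read as a set of such markers.

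The lists held between 3427 and 49918 peaks, 170 to 400 bases wide. The free lists of males 1 and 3 stood apart from the rest: 63.6% and 12.03% of their annotated peaks lay in exons or UTRs, against 0.572% to 1.35% in the other 6 lists. Trdmt1, the gene of Dnmt2, had 0 exonic peaks in every list, so the lists do not check the knockout. A list of 29 epididymal epithelium markers had exonic peaks for 25 genes in the free list of male 1 and 16 in that of male 3, where 28.4% and 4.5% of all named genes had them, and these held 6.48% and 8.04% of the summed score of exonic peaks. The range over the other 6 lists was 0 to 0.280%. Of that list, Spinlw1, Pate4, Ly6g5c and Bsph1 had no such peak in either list, and Lcn5, Lcn6, Lcn8 and Ros1 were among those with none in that of male 3. General epithelial markers had peaks for 14 and 7 of 15 genes in these lists (0.353% and 0.707% of the summed score). Markers of sperm and spermatids had peaks for 10 and 0 of 18 (0.305% of the summed score in male 1). In male 1, Odf1 (highest score 305.4), Prm2 (301) and Smcp (170.7) were among those with a peak. Tnp1, Akap4, Akap3, Ldhc and Acr were among those at 0 in both lists. In male 1 basal cell markers had peaks for 5 of 6 genes, clear cell markers for 3 of 8, leukocyte markers for 3 of 10 and erythroid markers for 2 of 8 (0.437% of the summed score), and in male 3 for 0 in each of these lists. Not all marker names occur in any list: 28 of 29 epididymal, 16 of 18 sperm and spermatid, 9 of 10 leukocyte and 7 of 8 erythroid names do. A name that occurs in none may be a symbol the lists do not use, so its 0 is not read as absence. The part of epithelial RNA in the peaks of the 7 genes was not tested.

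Of the 7 genes, 4 had a peak in exon 1 in both free lists, namely Sort1, Prom2, Mlec and Ace, and these are the stretches that the lists of different males share at the start of a transcript. The middle 30 bases of the stretch common to the lists, read from the GENCODE M21 transcripts on GRCm38, are shown with CG steps in capitals. They lie at chr3:108284260-108284289 on the plus strand for Sort1, at chr2:127541185-127541214 on the minus strand for Prom2, at chr5:115157976-115158005 on the minus strand for Mlec and at chr11:105968073-105968102 on the plus strand for Ace.
Sort1: gccCGCGcctcctctgctgCGctgggcCGg
Prom2: tggagcacctggcattCGctCGggtgccca
Mlec: CGctgtggCGcttctcCGgctgcttctgtt
Ace: cCGcccCGgcactCGaccctggattgcagc
All 4 windows are rich in G and C. The common stretch was 84.5% G and C in Sort1 (116 bases, where a peak of the free list of male 4 also lies), 69.4% in Prom2 (170 bases), 76.5% in Mlec (170 bases) and 66.5% in Ace (170 bases). Over the whole transcripts the share was 50.7%, 55.1%, 51.9% and 55.6%. Peaks in exon 1 or a 5' UTR are not peculiar to these genes: they made up 5 of 85 exonic peaks of the 7 genes in the free list of male 1 (5.88%, against 11.2% over all genes) and 4 of 28 in that of male 3 (14.3% against 27.3%).

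The exonic peaks of the 7 genes were found almost entirely in the free RNA of males 1 and 3. There were 85 in F of male 1 (ND), 0 in that of male 2 (ND), 28 in that of male 3 (HFD) and 1 in that of male 4 (HFD). In the DNA-bound lists there were 0 in each of the 4 males. All 7 genes had such a peak in F of male 1, where 28.4% of the genes named in any list did, and 6 of 7 in F of male 3, where 4.5% did. In F of males 2 and 4 the share of genes was 0.243% and 0.569%, and in D of males 1 to 4 it was 0.215%, 1.32%, 0.868% and 0.798%. Since these counts chose the genes, nothing is read from the difference. Within males, F exceeded D by 85, 0, 28 and 1 peaks, so that 1 male of each diet gave nearly all of them.

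**Figure D1:**
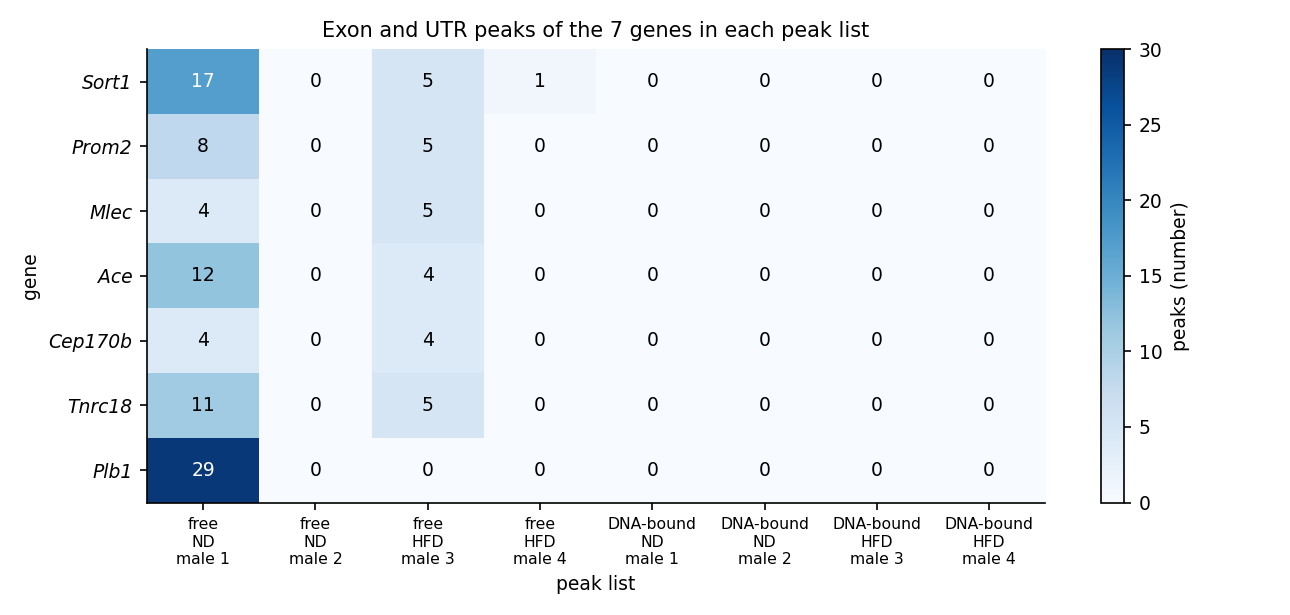
Number of exonic peaks of each of the 7 genes (rows) in the 8 peak lists (columns: RNA fraction, diet and male); each cell is 1 list of 1 male. The free lists of male 1 and male 3 hold 85 and 28 of the 114 peaks, F of male 4 holds 1 of Sort1, and the remaining 5 lists hold 0.

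Sort1 (chr3:108284082-108361511, plus strand) had 17 exonic peaks in F of male 1, 5 in F of male 3 and 1 in F of male 4. In male 1 the peaks followed the coding exons closely: 16 of the 20 annotated exons held a peak, all but exons 2, 7, 18 and 19, with scores between 59.9 and 318.9. The score, whose unit is not stated, was taken as the number of sequenced tags in a peak scaled by library and is read within a list, so that 318.9 is about 213 tags. In male 3 the gene kept its exon 1 peak (score 135.7, 64 tags), but its other 4 peaks (86.9, 86.9, 110.2 and 93.3) all lay in the 3' UTR. Between both lists the median position along the joined exons went from 19.9% of their length to 72.1%. Exon 1 was also the only exon of the 7 genes with a peak in F of male 4, where it held a peak of score 28 (18 tags), above 56.0% of the peaks of that list. Only this exon and the 3' UTR carried overlapping peaks in males 1 and 3.

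Prom2 (chr2:127526473-127541467, minus strand) had 8 exonic peaks in F of male 1 and 5 in F of male 3, and each of the 5 overlapped a peak of male 1, the largest share of the 7 genes in that direction. They lay in exon 1 (score 283 in male 1 and 116.6 in male 3), exon 7 (211.1 and 150.5), exon 10 (335.4 and 112.4) and at 2 places of the 3' UTR (151.2 and 89, and 167.7 and 108.1). A further peak of male 3 with a score of 95.4 was annotated as intron 21 by its centre, but 95 of its bases were exonic and it overlapped the exon 22 peak of male 1 (142.2). The peaks of this gene were high in both lists: the lowest of the 8 in male 1 stood above 96.7% of all peaks of that list, and the lowest of the 5 in male 3 above 86.7%.

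Mlec (chr5:115142981-115158179, minus strand) carried the highest peak of the 7 genes in each list, and at the same place. Its exon 1 peak had a score of 498.6 in F of male 1 (333 tags, rank 174 of 25406 peaks) and 188.7 in F of male 3 (89 tags, rank 223 of 10143), with centres 16 bases apart. This peak covers the start codon in both lists. The exon 3 peaks (134.8 and 97.5) had the same centre, and those of the 3' UTR (194.6 and 86.9) were 2 bases apart. Male 1 had 1 further peak, in exon 2 (107.8). Male 3 had 2 further peaks in the long 3' UTR, with scores of 95.4 and 59.4, so this was the only gene of the 7 with more peaks in male 3 (5) than in male 1 (4).

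In Ace (chr11:105967945-105989964, plus strand) peaks can be placed before or after the annotated start of the testis transcript, which lies inside the gene at base 105975208. The 12 exons upstream of that start (1973 bases) belong to the somatic transcript only. They held 7 peaks in F of male 1, with a median score of 98.8 (59.9 to 140.7), and 4 in F of male 3, with a median of 66.8 (57.2 to 99.6), peaks of every class that touch these exons being counted. Of these 4, the peak with a score of 63.6 was annotated as intron 6 and had only 9 exonic bases. The median and the peaks per 1000 bases of male 3 include it. The 13 exons downstream (2933 bases), which the transcripts share, held 6 peaks in male 1 (median 58.4, 44.9 to 73.4) and 2 in male 3 (106 and 120.8). Peaks in these shared exons cannot be assigned to either transcript. The annotation placed the peak of 106 in exon 14 of a form with 14 exons, and that of 120.8 in the 3' UTR of the form with 24. By median score the upstream exons were higher in male 1 and the downstream exons in male 3, where they had only 2 peaks. By peaks per 1000 exonic bases the upstream exons were higher in both, at 3.55 against 2.05 in male 1 and 2.03 against 0.682 in male 3. Exon 1 of the annotated testis transcript (196 bases) held 0 peaks in every list, and the presence of that transcript was not tested.

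The bases around the start codons, in capitals, differ between both forms of Ace and are shown because peaks reached the somatic start and not the testis start. They lie at chr11:105967970-105967999 and chr11:105975208-105975237. The annotated testis transcript begins at its start codon, so no bases before that codon are shown.
Ace somatic: gcgcaccgcgccATGggggccgcgtccggc
Ace testis: ATGggccaaggttgggctactccaggactg
The exon 1 peak of male 3 covered the somatic start codon, and that of male 1 began just downstream of it. In each of these lists 1 peak of Ace was annotated as promoter-TSS of the testis transcript (scores 101.8 and 99.6). Both lay in exon 12 of the somatic transcript, with 130 and 212 exonic bases, and ended 412 and 324 bases before the annotated testis start.

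**Figure D2:**
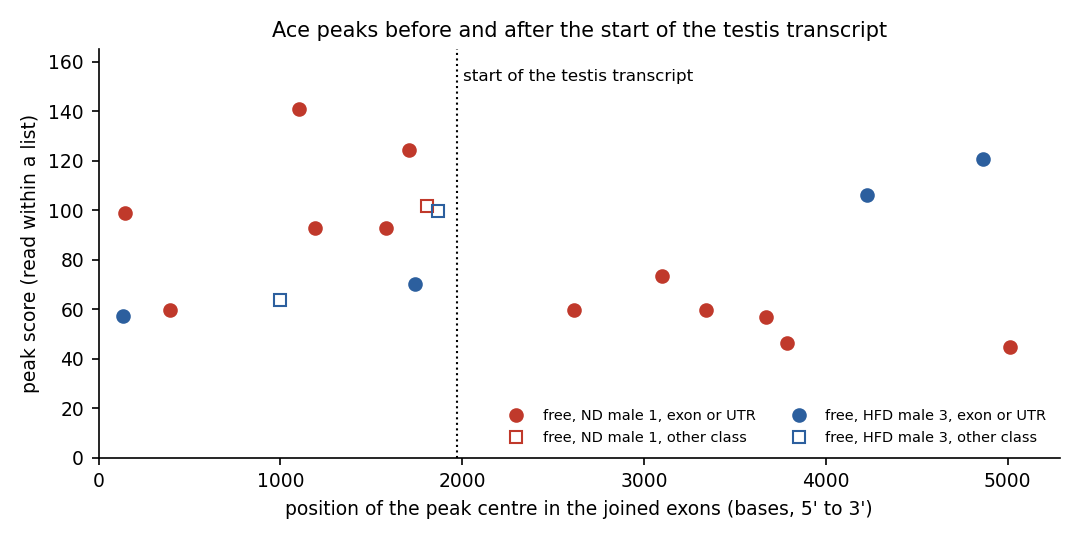
Score of each Ace peak that touches an exon (vertical axis, to be read within a list) against its position in the joined exons in bases (horizontal axis), for the free lists of male 1 (ND, red) and male 3 (HFD, blue). Open squares are peaks annotated to another class, and the dotted line is the annotated start of the testis transcript. To the left of the line lie 7 red and 4 blue points and to its right 6 red and 2 blue ones, with the red scores lower on the right and the blue scores higher.

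Cep170b (chr12:112720455-112746592, plus strand) had 4 exonic peaks in F of male 1 and 4 in F of male 3. Its highest scores (53.9 and 97.5) were the lowest maxima among the genes with exonic peaks in each list. In male 1 the exonic peaks lay in exons 2, 12 and 19 and the 3' UTR, with scores of 37.4, 53.9, 35.9 and 47.9. In male 3 exon 12 held 2 peaks (97.5 and 50.9), exon 13 held 1 (42.4) and the 3' UTR 1 (42.4). Only the first exon 12 peak was at the same place in both, with centres 46 bases apart, and it was the highest exonic peak of the gene in each list. A further peak of male 1, with a score of 56.9, was annotated as intron 7, though 84 of its bases were exonic. No peak lay in exon 1.

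Tnrc18 (chr5:142724661-142817662, minus strand), the longest of the 7 with 11403 exonic bases, had 11 exonic peaks in F of male 1 and 5 in F of male 3. Its peaks were of very uneven height in male 1, from 16.5 (11 tags) to 127.3 (85 tags). Of the 5 peaks of male 3, 4 overlapped a peak of male 1, in exons 4, 10, 16 and 25. At exon 25 the score was 127.3 in male 1 and 86.9 in male 3, above 96.1% and 86.0% of the peaks of their lists. At exon 16 the scores were 18 and 72.1, which stood above 6.54% of peaks in male 1 and 74.3% in male 3.

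Plb1 (chr5:32232714-32364356, plus strand) differed from the other 6 genes in that its exon peaks were found in male 1 alone. It had 29 exonic peaks there, with scores from 16.5 (11 tags) to 137.7 (92 tags) and a median of 49.4, and 0 in F of males 2, 3 and 4. Peaks touched 32 of 60 exon blocks, those annotated to an intron or the promoter included, and there were 4.97 exonic peaks per 1000 exonic bases. The highest was in the 5' UTR, over the start codon. Male 3 gave 2 peaks of the gene, both in introns and without an exonic base, at scores of 33.9 and 38.2. Plb1 was chosen for its count in male 1, so the difference between the lists is a description. Of the 16 genes with 20 or more exonic peaks in male 1, 10 had 0 in male 3, among them the titin gene Ttn (29) and Prom1 (20). Of the 1288 genes with 4 or more in male 1, 29.3% had at least 1 in male 3.

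**Figure D3:**
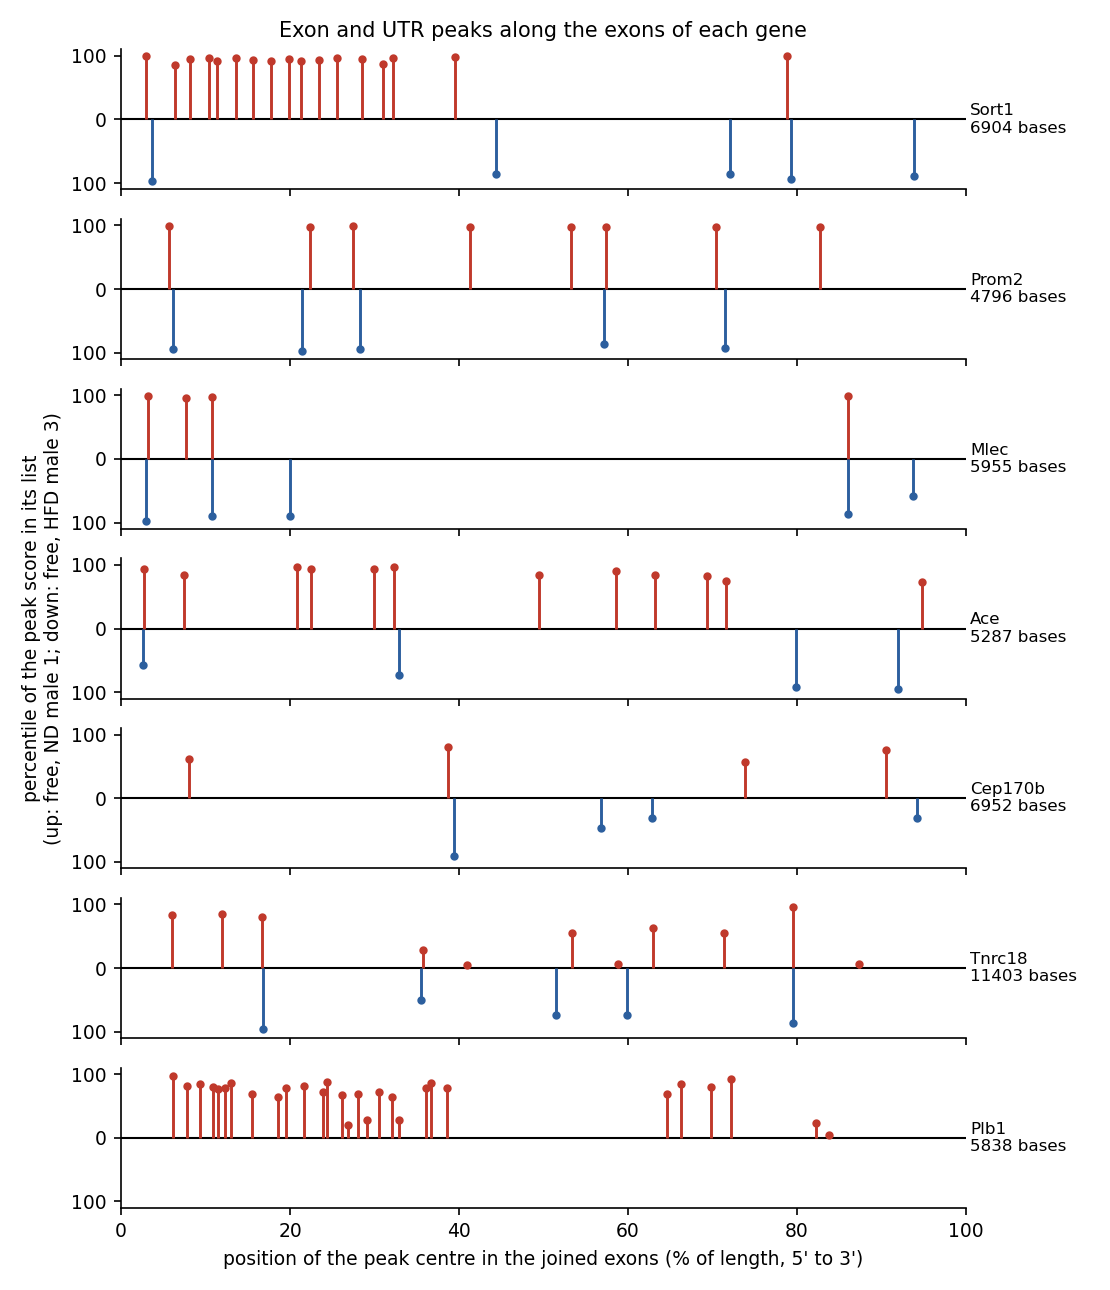
Exonic peaks of the 7 genes along their joined exons (horizontal axis, percent of exonic length from 5' to 3'), drawn upwards for the free list of male 1 (ND) and downwards for that of male 3 (HFD); the height is the percentile of the score among all peaks of the list. The 5 peaks of Prom2 in male 3 each face a peak of male 1, the Sort1 peaks of male 3 lie mostly towards the 3' end, and the 29 Plb1 peaks of male 1 face none.

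Of the 28 exonic peaks of the 7 genes in F of male 3, 18 shared at least 1 base with a peak in F of male 1 (64.3%, 95% Wilson interval 45.8 to 79.3, covering counting error only, since peaks of 1 gene come from the same transcript). Over all genes 56.4% of the exonic peaks of male 3 did. From the other side, 19 of the 85 peaks of male 1 overlapped a peak of male 3 (22.4%, 14.8 to 32.3), against 4.93% over all genes. Since counts in these lists chose the genes, nothing is read from either difference, and 29 of the 85 belong to Plb1, which has none in male 3. By gene, the overlap was 5 of 5 for Prom2, 4 of 5 for Tnrc18, 3 of 4 for Ace, 3 of 5 for Mlec, 2 of 5 for Sort1 and 1 of 4 for Cep170b. The centres of the 18 pairs were 28.5 bases apart in the median, with a range of 0 to 153.

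In the median over the 7 genes the overlapping peaks stood higher in their lists than the others, as they did over all genes (89.9% against 54.3% in male 1 and 74.3% against 59.1% in male 3). In F of male 1 the 19 peaks with a partner stood above 96.7% of the peaks of the list in the median, and the rest above 83.4%. For male 3 the medians were 91.6% and 80.1%. Ace in male 3 went the other way (72.9% with a partner and 92.5% without), and Tnrc18 in male 1 had 54.3% in both. Across the 18 pairs Spearman's rho of the scores was 0.577, as a description across peaks that share 2 libraries, and across the 670 pairs of all genes it was 0.496. In rank within the list, 13 of the 18 pairs stood lower in male 3 and 5 higher. The 5 were 3 of the 4 Tnrc18 pairs, the Cep170b pair and the 3' UTR pair of Ace. This was not counted for the pairs of all genes. The overlapping peaks of all genes also had a lower median in male 3 (74.3%) than in male 1 (89.9%), so a lower rank there is not particular to these genes.

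**Figure D4:**
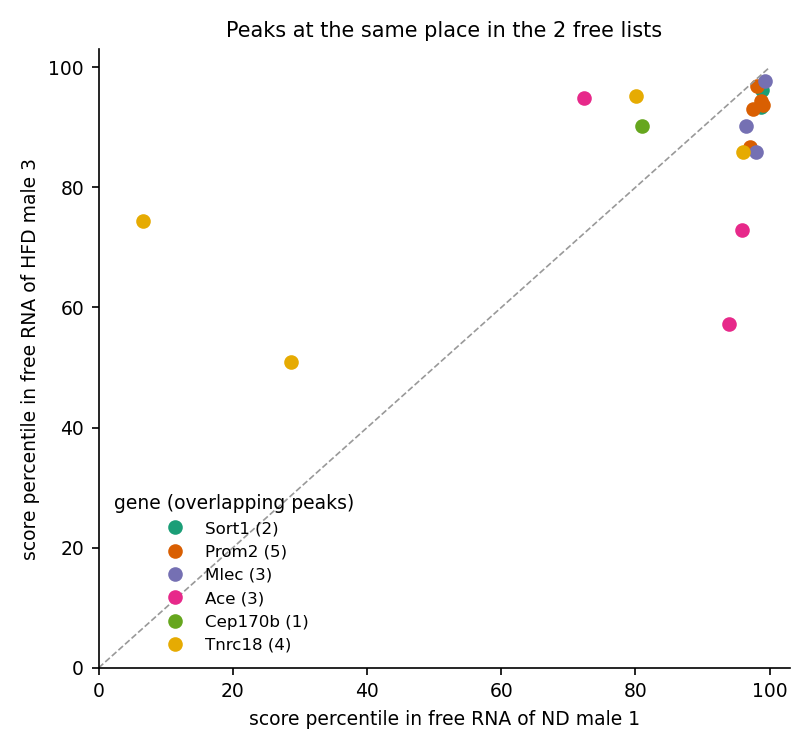
Percentile of the score in the free list of male 3 (vertical axis) against that in the free list of male 1 (horizontal axis) for the 18 pairs of overlapping exonic peaks, coloured by gene; the dashed line marks equal percentiles. The 10 pairs of Sort1, Prom2 and Mlec lie in the upper right corner, above 85% in both lists, and 3 of the 4 Tnrc18 pairs lie above the line.

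By the median rank of its peaks, the order of the genes in F of male 1 was Prom2 (above 97.6% of all peaks of the list), Mlec (97.2%), Sort1 (95.5%), Ace (87.1%), Plb1 (77.5%), Cep170b (68.3%) and Tnrc18 (54.3%). For male 3 it was Prom2 (93.7%), Mlec (89.7%), Sort1 (88.5%), Ace (82.7%), Tnrc18 (74.3%) and Cep170b (38.6%). The leading 4 genes thus came in the same order in both males, and the last 2 changed places. The ranges of neighbours in this order overlapped in both lists. Over all exonic peaks the medians were 54.3% and 67.9%, so the median of Tnrc18 in male 1 was that of all genes.

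Peaks of the 3' UTR took a larger share in male 3. They were 10 of 85 peaks of the 7 genes in F of male 1 (11.8%) and 11 of 28 in F of male 3 (39.3%), while over all genes the share was 21.7% and 29.7%. Part of this is a change in the genes counted: 29 of the 85 belong to Plb1, with 1 in the 3' UTR, and Plb1 had 0 exonic peaks in male 3. Sort1, with 2 of 17 and 4 of 5, and Mlec, with 1 of 4 and 3 of 5, differed most between the lists, whereas Prom2 had 3 of 8 and 2 of 5. Tnrc18 went the other way, from 1 of 11 to 0 of 5. With 1 such list per diet, diet and library cannot be told apart in these shares.

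Other genes had counts like these. For male 3, 17 genes had 4 or more exonic peaks: Kmt2d with 8, then Mlec, Prom2, Sort1 and Tnrc18 with 5 each, and Ace and Cep170b among 12 with 4. Just outside, 32 genes had 3, for example the actin gene Actb and the calreticulin gene Calr. Among the genes of male 1, Plb1 was level with Ttn behind Syne2 (46 peaks), Sort1 was 30th, and Mlec and Cep170b, with 4, were level with many genes, 78.7% of genes having fewer. The 10 other genes with the highest counts in both of the 2 lists were ranked by the smaller count, then by the sum and then by name. They were Kmt2d, which encodes a histone methyltransferase (10 peaks in male 1 and 8 in male 3), Syne2 (46 and 4), the myosin gene Myh9 (21 and 4), Prrc2b and Ptprf (19 and 4 each), Fkbp5 (13 and 4), the mucin gene Muc5b (11 and 4), Shroom3 (10 and 4), Maged1 (5 and 4) and the fatty acid synthase gene Fasn (4 and 4), with which the glutamine synthetase gene Glul (4 and 4) was tied. Over the other 6 lists each of these 10 genes had 1 exonic peak at most. Of all 6096 genes with an exonic peak in male 1, 14.2% had 1 in male 3.

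**Figure D5:**
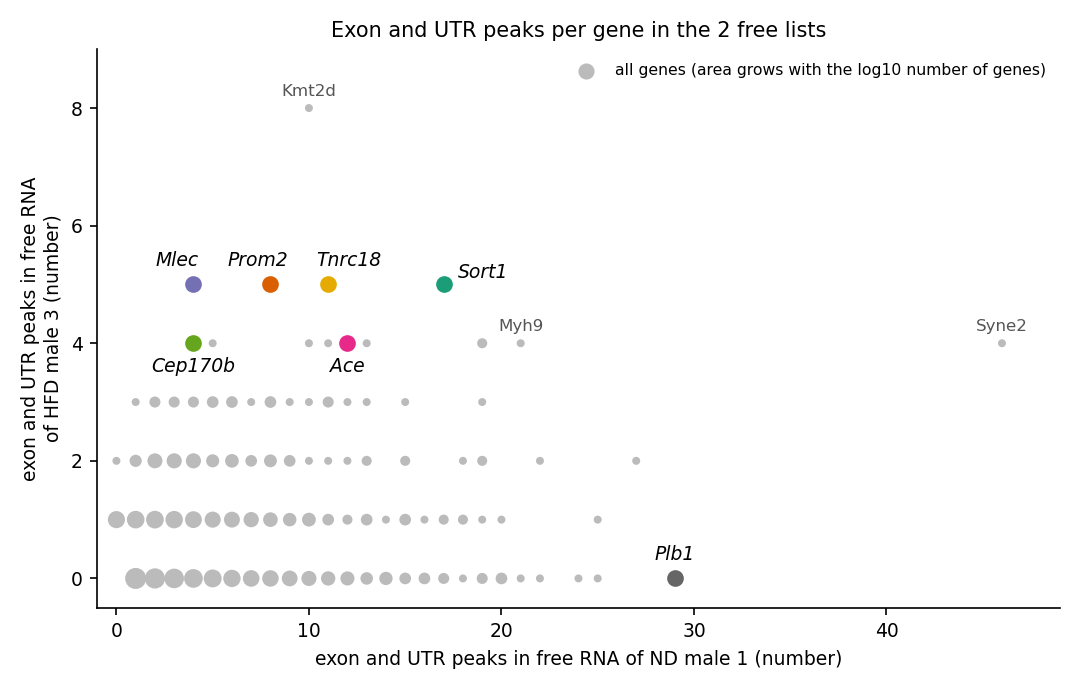
Exonic peaks per gene in the free list of male 3 (vertical axis) against the free list of male 1 (horizontal axis); grey points are all genes with such a peak in either list, with larger points for more genes, and coloured points the 7 genes. Only 17 genes reach 4 on the vertical axis, 6 of them coloured, and Plb1 lies at 29 and 0.

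Long genes have more room for peaks, and the counts per 1000 exonic bases gave another order. The values in F of male 1 were 4.97 for Plb1, 2.46 for Sort1, 2.27 for Ace, 1.67 for Prom2, 0.965 for Tnrc18, 0.672 for Mlec and 0.575 for Cep170b, with a median of 0.525 over genes that had a peak. Prom2 came first in male 3 with 1.04, then Mlec (0.840), Ace (0.757), Sort1 (0.724), Cep170b (0.575) and Tnrc18 (0.438), with a median of 0.299. Cep170b in male 1 was thus near the median of genes with a peak.

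The nearest gene, which the lists print beside each peak, often was not the gene the peak lay in. Of the 114 exonic peaks, 51 had another nearest gene. For Sort1 that was Mybphl, for Prom2 Kcnip3, for Ace Gm11651, for Mlec Unc119b, for Cep170b Mir6940 and for Tnrc18 Slc29a4. This held for 34 of the 85 peaks of male 1, where the share over all genes was 38.8%, and for 17 of the 28 of male 3 (60.7%, against 35.3% over all genes). All 29 peaks of Plb1 had Plb1 as their nearest gene. By nearest gene alone the counts would be 51 in place of 85 and 11 in place of 28.

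Outside exons and UTRs the 7 genes had 43 peaks, of which 17 lay in annotated repeats, while 0 of the 114 exonic peaks did. The 6 lists other than F of males 1 and 3 held 24 of these peaks, 11 in introns and 13 between genes. The intron peak nearest to Mlec in D of male 2 lies in an intron of its neighbour Cabp1. Just 1 of the 24 touched an exon: in D of male 2 a peak of Plb1 annotated as intron 14 covered 99 exonic bases and a stretch rich in C and T (score 16.1, 50 tags). In Tnrc18 a B1 element of intron 4 held a peak both in F of male 3 (46.6) and in D of male 2 (12.9). Of the 14 intron peaks in F of males 1 and 3, 6 also touched an exon, such as that of Prom2.

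Intron peaks, which were not counted in choosing the genes, were compared between diets within each fraction. In F they are not independent of the choice, since the lists of males 1 and 3 there are those whose counts chose the genes. Of the 14 intron peaks in these lists, 6 also touch an exon. Leaving out those 6 does not remove this dependence. Per 1000 intron peaks of the list they numbered 0 in male 1 and 0.365 in male 2 of D on ND, and 0.261 in male 3 and 0 in male 4 of D on HFD. The means were 0.182 ± 0.258 on ND and 0.131 ± 0.185 on HFD (SD, n = 2), a difference of -0.0517 (HFD minus ND; exact permutation test, two-sided p = 1). In F they were 1.67 in male 1 and 0 in male 2 on ND, and 1.45 in male 3 and 0.473 in male 4 on HFD. The means were 0.836 ± 1.18 and 0.959 ± 0.687 (SD, n = 2), a difference of 0.123 (exact permutation test, two-sided p = 1). The groups overlapped in both fractions, and 2 males against 2 cannot give a p below 0.333. Without the peak in the Cabp1 intron D of male 2 has 0.304 and the difference in D is -0.0213 (exact p = 1). With peaks that touch no exon F has 0.836, 0, 0.963 and 0.473 in males 1 to 4, a difference of 0.300 (exact p = 0.667).

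Genes related to each of the 7 by function or by family were followed in chosen lists. With the 7 genes themselves left out, the counts in these lists are read beside 28.4% of all genes with an exonic peak in F of male 1 and 4.5% in F of male 3. In the group of sorting receptors and retromer, 10 of 17 genes had such a peak in male 1 and 2 in male 3, the sorting nexin Snx1 (7 and 1 peaks) and the lysosomal protein gene Psap (5 and 2). Of the prominins and proteins of membrane protrusions 8 and 4 of 9 did, and Prom1, the paralog of Prom2, had 20 peaks in male 1 and 0 in male 3. All 14 further genes of N-glycan processing had a peak in male 1 and 5 in male 3, among them the chaperone genes Calr (4 and 3) and Canx (13 and 1). Of the angiotensin components and brush border peptidases other than Ace, 5 and 0 of 13 did, though with Ace only 11 of the 14 names occur in any list. The CEP170 group without Cep170b had 4 and 0 of 10, with Cep170 itself at 0 in both lists. The mixed group of BAH domain, repeat-containing and chromatin proteins other than Tnrc18 had 8 and 3 of 9, including Arid1a (5 and 3) and Rere (3 and 2). The phospholipases other than Plb1 had 5 and 0 of 13, with at most 3 peaks each in male 1.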

How the data were processed

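Free and DNA-bound RNA of sperm was sequenced by the study from 4 Dnmt2-/- males, and 8 peak lists were used. Per the labels and methods, the authors trimmed the reads (cutadapt, Trimmomatic 0.36), aligned them to the GRCm38 genome and called peaks in each library with HOMER 4.9 (region 10000 bases, fold 4, Poisson p 0.0001, false discovery rate 0.001), so weaker signals are absent. The deposited score of each peak has no stated unit. Every score under 100 was a whole multiple of 1 step per list within 0.2 steps, so tags were inferred as score over step (6 or more per peak in 7 lists, 14 or more in D of male 2). Scores were compared within a list only, because scaling and depth differ, and the reads per library were not used. Strand is the same for every peak, which leaves overlapping and antisense genes unresolved.

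A peak was given to a member when its annotated RefSeq transcript or its nearest gene was that member, and for all other genes to the gene of the transcript. HOMER sets the class by the centre of the peak. Exons were merged over the protein-coding GENCODE M21 transcripts (GRCm38, the build called mm10). Peaks overlapped when they shared at least 1 base. Python 3.11.15, pandas 2.3.3 and scipy 1.17.1 were used, the steps were tested on simulated data, and 0 columns of values were left unused. The members and lists were chosen with earlier results of these data known. The 10 other genes with the highest counts were ranked by the smaller of the F counts of males 1 and 3, then by the sum and by name. p-values measure the spread between males. Alternatives were other gene assignments, classes, score minimums, overlap rules and rank bases, and leaving out each gene or male.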

Additional observations from a re-analysis of the deposited data

How the results depend on the processing

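The counts of 0 in F of male 2 and in the D lists stayed 0 under every alternative, which says little about stability. Most of the other counts and shares moved little, with the exceptions given here. Ranked among exonic peaks only, the median peak of the 7 genes in F of male 3 stood above 73.7%, in place of 87.6% among all peaks. For F of male 1 these values were 82.1% and 84.6%. By nearest gene alone the exonic peaks (exon or UTR) of the 7 genes were 51 in F of male 1 (85) and 11 in F of male 3 (28), and with exons alone, without UTRs, 17 in F of male 3. Without Plb1 there were 56 in F of male 1, and without Sort1 there were 0 in F of male 4. With centres within 500 bases as the rule, 85.7% of the peaks of male 3 had a partner in male 1. The difference of intron peaks between diets (HFD minus ND, per 1000) had no stable sign: leaving out 1 male in turn it ran from -0.234 to 0.131 in D and from -0.713 to 0.959 in F. In D it turned positive without male 2 (0.131) and without male 4 (0.0790), and in F negative without male 2 (-0.713) and without male 3 (-0.363). Counting only introns of the 7 genes' own transcripts, or only intron peaks that touch no exon, was chosen after seeing the data and left the sign in both fractions. No paired analysis was possible because the diets were given to different males, which share no number. The lists hold only peaks past the caller's thresholds, and 2 males per group limit every comparison.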
